A study of Homo sapiens with 4 samples.

Results

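The unfolded protein response and the chaperones of the endoplasmic reticulum (ER) were followed through 38 genes, taken by gene symbol from the 50868 genes with counts in each library. All 38 had a row of their own, and 37 held enough reads to be tested among the 15222 genes that passed the filter on low counts. The cells were A549, a line from a human lung adenocarcinoma, sequenced in 2 libraries of control cells, given as empty vector (EV) in the study, and 2 libraries of cells overexpressing USP12, a deubiquitinase. The study describes pLVX expression vectors for its tagged USP12, and neither the labels nor its methods name a drug, a stressor or a time point for these cells. Nothing says that the replicates came from separate cultures, so p-values measure the spread between these libraries, which may be technical. As in any bulk RNA measurement, fewer cells of a kind and less RNA per cell cannot be told apart.

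Proteins of the secretory pathway fold in the ER, and the unfolded protein response adjusts the capacity of that compartment to its load. It has 3 sensors in the ER membrane. IRE1, encoded by ERN1, cuts XBP1 mRNA so that a potent transcription factor is made. PERK, encoded by EIF2AK3, phosphorylates eIF2-alpha, which lowers translation in general and favours that of ATF4. ATF6 moves to the Golgi and is cleaved there to release a transcription factor. XBP1 and ATF6 act on genes for chaperones, disulphide isomerases, ER-associated degradation (ERAD) and transport, and ATF4 acts on amino acid synthesis, redox genes and DDIT3 (CHOP), a factor linked to cell death under prolonged stress. Gene counts do not separate spliced from unspliced XBP1 mRNA, nor cleaved from whole ATF6 protein.

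The promoters of several of these genes carry short response elements, shown here because XBP1, ATF6 and ATF4 are known to act through them. Windows of 300 bases, 250 before and 50 after each gene start, were taken from RefSeq on GRCh38.p14 for 34 of the 38 genes, with no entry for PDIA3, DERL1, DERL3 and SEC24D. The ER stress response element ERSE, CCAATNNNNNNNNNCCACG on either strand, was in 7 of the 34 windows (20.6%) and in 0.0916% of the 27305 genes with a window. ERSE-II, which is ATTGG and CCACG with 1 base between them, was in 3 (8.82%, against 0.0696%), and the 10 genes with either were CALR, CANX, CRELD2, HERPUD1, HSP90B1, HSPA5, HYOU1, PDIA6, SDF2L1 and XBP1. The XBP1 motif UPRE, TGACGTGG, was in HYOU1 alone among the members (2.94%, against 0.927% of all genes), where it shares bases with an ERSE-II. The ATF4 motif CARE, TGATGNAA, was in ASNS, CHAC1 and HERPUD1 (8.82%, against 4.46%). A match is a description of these letters and not a binding site. The members were listed as genes of the response these elements are known for, so their higher shares test nothing. Stretches around the elements are printed for 6 genes whose levels are described below, 5′ to 3′ on the strand of the gene, with the fixed letters of ERSE, ERSE-II and UPRE in capitals.
HSPA5, chr9:125241376-125241424, minus strand, ERSE: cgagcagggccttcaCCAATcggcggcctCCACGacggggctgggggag
XBP1, chr22:28800588-28800636, minus strand, ERSE: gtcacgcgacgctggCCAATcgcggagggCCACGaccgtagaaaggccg
CRELD2, chr22:49918539-49918587, plus strand, ERSE read on the other strand: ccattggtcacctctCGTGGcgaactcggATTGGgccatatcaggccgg
HERPUD1, chr16:56932010-56932050, plus strand, ERSE-II: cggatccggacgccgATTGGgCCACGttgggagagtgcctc
SDF2L1, chr22:21642099-21642139, plus strand, ERSE-II read on the other strand: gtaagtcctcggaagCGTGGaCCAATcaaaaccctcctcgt
HYOU1, chr11:119057259-119057408, minus strand, UPRE and 2 ERSE-II read on the other strand: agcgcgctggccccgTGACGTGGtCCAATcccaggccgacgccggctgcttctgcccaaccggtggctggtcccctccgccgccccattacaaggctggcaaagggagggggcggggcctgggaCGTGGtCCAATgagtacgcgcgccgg

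The libraries held between 14280081 and 16305356 counts, so that 3 counts, taken as the floor, were worth 0.166 to 0.227 CPM, which are counts relative to the library size after TMM, edgeR's correction for composition, with counting error alone considered. USP12 had 15.2 and 34.4 CPM in the controls and 1745 and 2235 CPM in the cells overexpressing it, with a log2 fold change of 6.32 and a p of 0.0975, adjusted over all tested genes, by edgeR's quasi-likelihood test. The epithelial markers of A549 (KRT8, KRT18, KRT7, EPCAM and CDH1) summed to 12460 and 7360 CPM in the controls and 7247 and 6739 CPM with USP12. For KRT8, KRT18 and EPCAM both USP12 libraries lay below both controls, and for KRT7 and CDH1 the groups overlapped. CDKN2A and CDKN2B, which are deleted in this line, had 0 counts in every library. The control libraries stood apart from each other. The SD over genes of their log2 difference was 1.32, against 0.62 between the USP12 libraries, and the number that looks like a date in front of the column name was different for control replicate 1 than for the other 3. As it marks a single library, a batch and that library cannot be told apart, and list medians and the main genes below are also given against each control library. The share of counts on mitochondrial genes also moved with the groups, at 13.8% and 14.5% in the controls and 25.3% and 23.2% with USP12. Of 3 endothelial markers, CDH5 (136 and 96 counts in controls, 2 and 5 in USP12 libraries) and PECAM1 (68 and 56, 4 and 14) were lower with USP12 while VWF had 0 to 3 counts. Their sum was 15.4 and 8.59 CPM in the controls and 0.432 and 1.32 CPM in the USP12 libraries, and their part in the results was not tested. Markers of fibroblasts (at most 0.762 CPM in sum) and red cells (0 counts) were at or near 0, and the leukocyte list, 46.8 to 79.0 CPM, was almost all CD68.

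The question set by the design was which genes differ between USP12-overexpressing and control cells. Of the 37 tested ER genes, 35 had a lower estimate with USP12 and 2 (DERL1 and ASNS) a higher one, by at most 0.03 on the log2 scale, against 53.6% of all tested genes with a lower estimate. DERL1 also came out lower, at -0.01, under DESeq2's size factors. The median log2 fold change of the 37 was -0.55, beside -0.06 over all tested genes, and the values ran from -1.59 (DDIT3) to 0.03 (ASNS). Both USP12 libraries lay below both control libraries for 19 of the 37 genes, beside 17% of all tested genes, and above both for 0, beside 19.5%. No ER gene had an adjusted p under 0.05 by edgeR's quasi-likelihood test, and neither had any of the 15222 genes (0%), of which 1155 had an unadjusted p under 0.05, 4 of them ER genes. The study's criterion for lower genes was a p of 0.05 or less with a log2 fold change of -1 or less, and here that cut-off was applied to the unadjusted p and mirrored for higher genes. By this cut-off XBP1, HYOU1, P4HB and PPP1R15A were lower, beside 4.41% of all genes, and 0 were higher, beside 2.92%. By edgeR's exact test, XBP1 alone of the ER genes was lower at an adjusted p under 0.05, beside 1.72% of all genes. DESeq2's Wald test likewise called XBP1 alone as lower (adjusted p = 0.0498), beside 277 of the 15222 genes. With the mitochondrial genes left out before scaling, the median stayed at -0.55 and the same number, 4, met the cut-off.

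**Figure D1:**
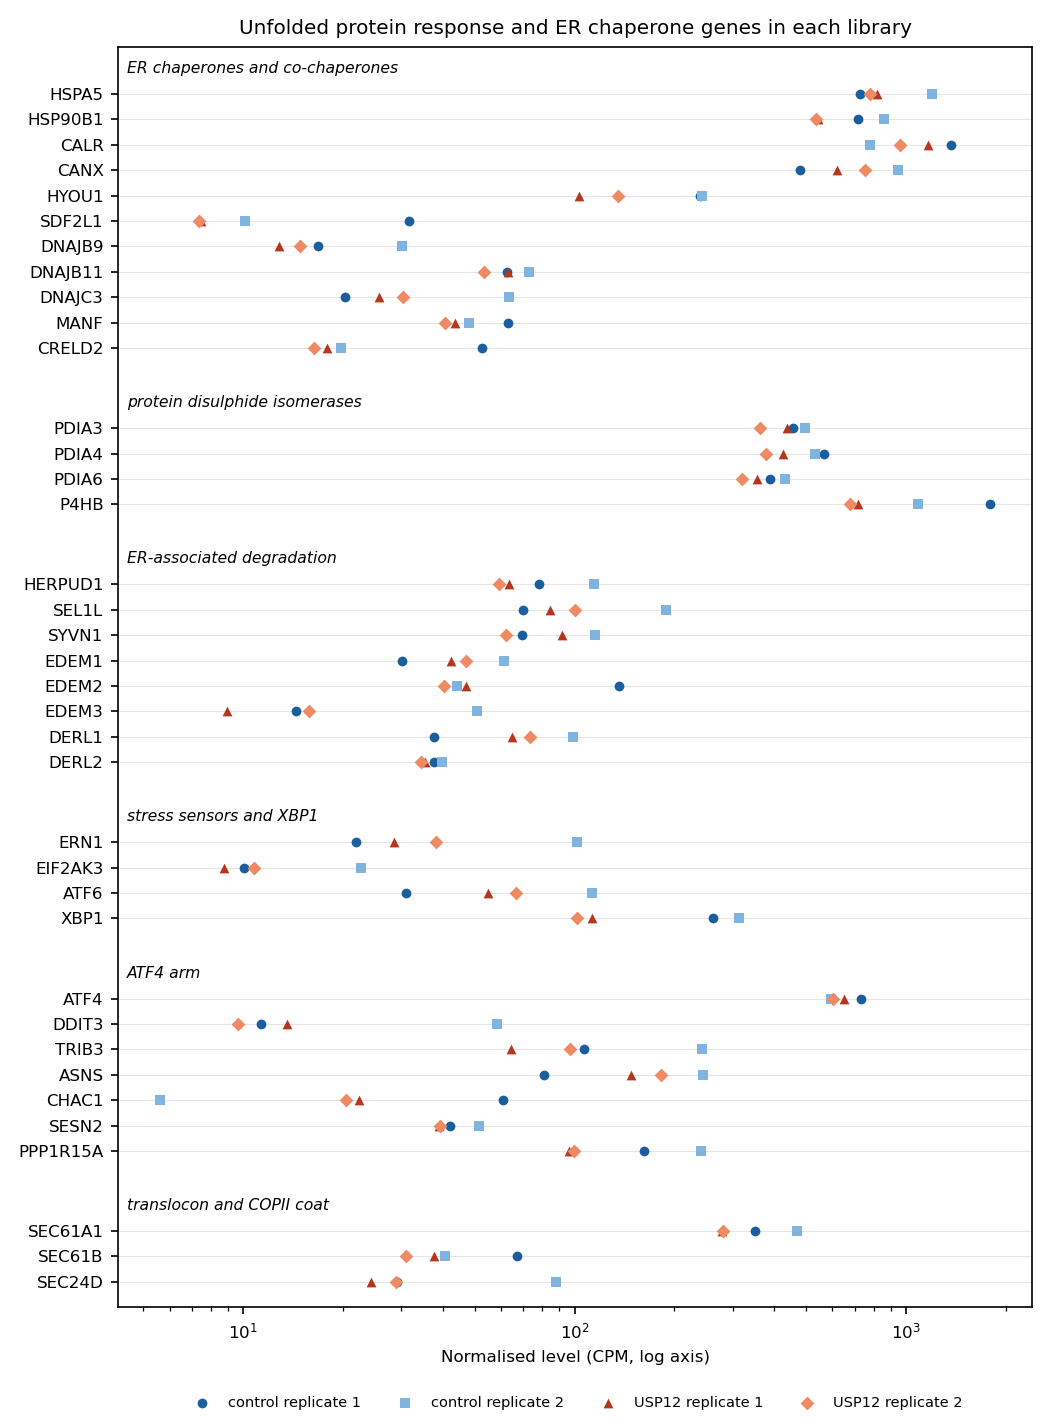
Normalised level of each tested gene (CPM, log axis) in the 4 libraries, grouped by role, with 1 symbol per library. The 2 USP12 symbols lie left of both control symbols for 19 of the 37 genes, and the blue control symbols are often far from each other, as for CHAC1 (60.8 and 5.60 CPM).

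**Figure D2:**
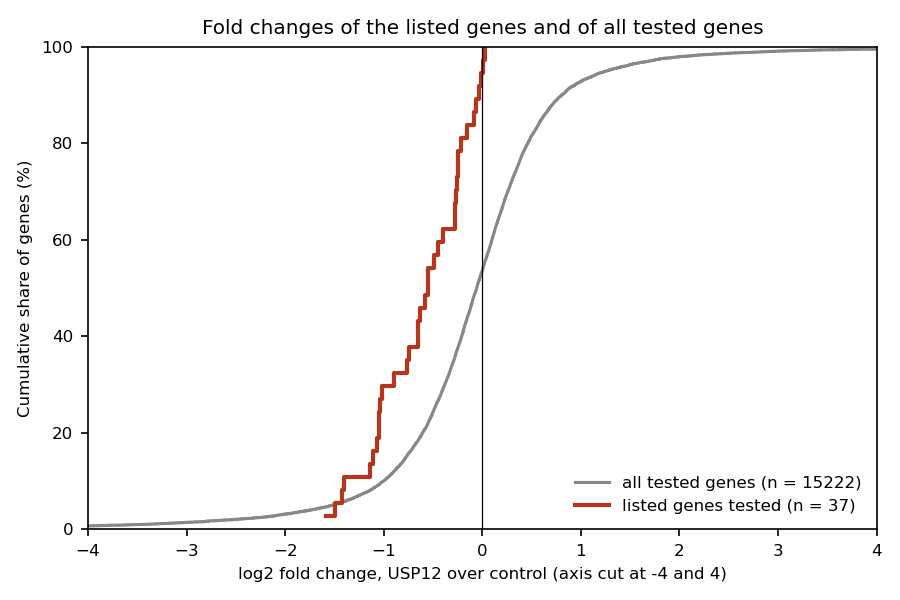
Cumulative share of genes (%) against the log2 fold change of USP12 over control for the 37 tested ER genes and all 15222 tested genes. The curve of the ER genes crosses the middle of the axis at -0.55 and ends near 0, while that of all genes crosses at -0.06.

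How far the set was lower depended on which control library it was set against. The median difference in log2 CPM of the USP12 libraries was -0.23 against control replicate 1 and -0.59 against control replicate 2. Between the control libraries themselves 16 of the 37 genes differed by over 1 on the log2 scale, beside 6629 of all 15222 tested genes. Between the USP12 libraries 0 of the 37 did, beside 1203 of all. Control replicate 2 was the higher of the 2 controls for 27 ER genes (7684 of all) and control replicate 1 for 10 (7538 of all). When control replicate 2 was left out, the median log2 fold change was -0.20, beside 0.09 over all tested genes, and 26 of the 37 estimates were lower. When control replicate 1 was left out, it was -0.58, beside 0.02 over all tested genes, and 34 of the 37 were lower. Each of these fits rests on a lone control library assumed to vary like the USP12 libraries. Without control replicate 1, 15 ER genes passed an adjusted p of 0.05 as lower by edgeR's quasi-likelihood test, beside 5.74% of 15909 genes, and 1 was higher, beside 4.73%. Without control replicate 2, 9 were lower, beside 16.3% of 16008 genes, and 3 were higher, beside 15.9%. Over all alternatives, the highest adjusted p of every tested ER gene was 1, reached when a USP12 library was left out.

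**Figure D3:**
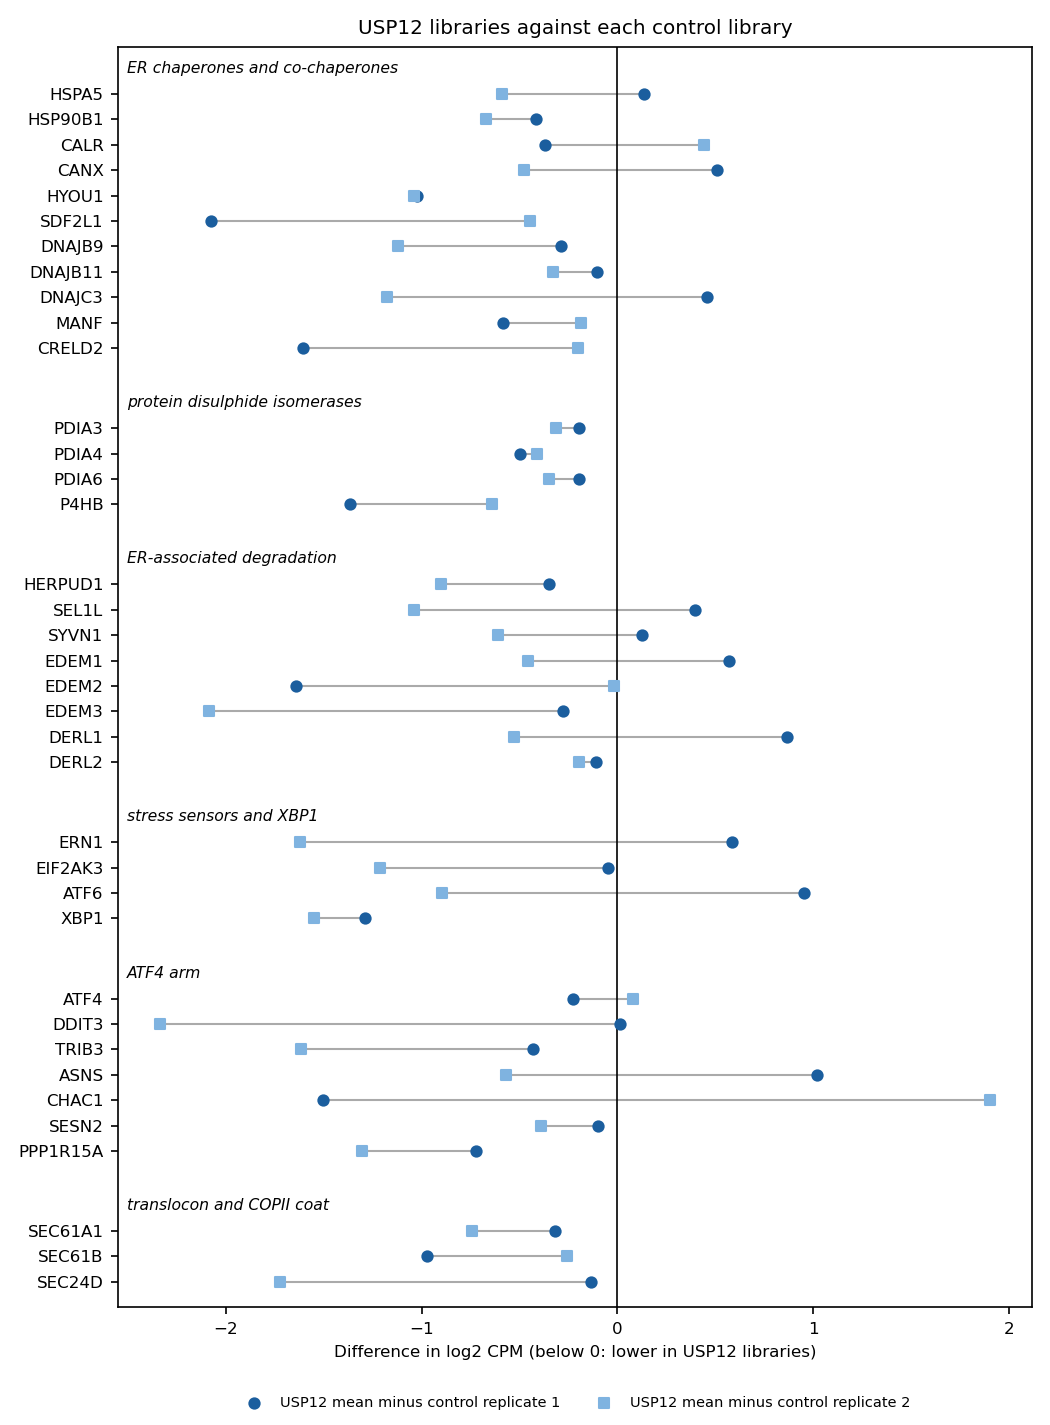
Difference in log2 CPM between the mean of the USP12 libraries and control replicate 1 (dark circles) or control replicate 2 (light squares) for each tested gene. XBP1 (-1.29 and -1.55) and HYOU1 (-1.02 and -1.04) lie on the lower side with both symbols close, whereas CHAC1 (-1.50 and 1.91) and ATF6 (0.96 and -0.89) lie on opposite sides of 0.

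XBP1, the transcription factor made after IRE1 cuts its mRNA, had the smallest p among the ER genes. It had 261 and 314 CPM in the controls and 113 and 101 CPM with USP12 (3451, 5661, 1564 and 1465 counts). Every USP12 value was below every control value, and the gap between the groups was wider than the gap within either. The log2 fold change was -1.43 (SE 0.34, 2.69-fold lower, adjusted p = 0.307 by edgeR's quasi-likelihood test). XBP1 (ENSG00000100219) is a minus-strand gene of chromosome 22 (28794555 to 28800597 in GRCh38), and no other annotated gene overlaps it. Its adjusted p was 0.0362 by edgeR's exact test, 0.0498 by DESeq2, and by the quasi-likelihood test 0.00525 when control replicate 1 was left out and 0.00771 when control replicate 2 was, in a range of 0.00525 to 1 over the alternatives, while its log2 fold change stayed between -1.55 and -1.26.

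The genes of the 3 sensors did not share that pattern. ERN1 (IRE1) had 21.9 and 102 CPM in the controls and 28.5 and 38.1 CPM with USP12. EIF2AK3 (PERK) had 10.1 and 22.7 CPM in the controls and 8.78 and 10.8 CPM with USP12. ATF6 had 31.1 and 113 CPM in the controls and 54.9 and 66.6 CPM with USP12. In each of the 3 the groups overlapped, with control replicate 2 the highest library by a wide margin. The estimates were lower in all 3, at -0.89, -0.74 and -0.24, with SEs of 0.55 to 0.72. The median of the 3 with XBP1 was 0.27 against control replicate 1 and -1.38 against control replicate 2. ERN1 and ATF6 changed direction with the control, at 0.58 and 0.96 against control replicate 1 and -1.62 and -0.89 against control replicate 2. EIF2AK3 was -0.05 against control replicate 1 and -1.21 against control replicate 2, so its lower estimate rested on control replicate 2.

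Among the 11 ER chaperones and co-chaperones, all 11 had a lower estimate. Of these, 6 had both USP12 libraries below both controls, beside 17% of all tested genes. The median log2 fold change of the 11 was -0.55, and it was -0.33 when control replicate 2 was left out. In log2 CPM the median was -0.37 against control replicate 1 and -0.48 against control replicate 2. HYOU1, a large HSP70-family chaperone that drives nucleotide exchange on BiP, had 239.6 and 242 CPM in the controls and 103 and 135 CPM with USP12. The control libraries nearly coincided for this gene, differing by -0.02 on the log2 scale, and both USP12 libraries were well below. Its log2 fold change was -1.02 (SE 0.35, 2.03-fold lower, unadjusted p = 0.0257, adjusted p = 0.514 by edgeR's quasi-likelihood test). It was -1.02 and -1.04 against control replicates 1 and 2 taken alone, and the quasi-likelihood adjusted p was 0.0214 when control replicate 2 was left out and 0.0334 when control replicate 1 was, in a range of 0.0214 to 1 over the alternatives. HYOU1 (ENSG00000149428, chromosome 11 from 119044188 to 119057227, minus strand) is overlapped by an unnamed gene on the opposite strand, and strand use in the counting is not given in the sources used here.

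HSPA5, which encodes BiP, a widely used reporter of ER stress, had 728 and 1202 CPM in the controls and 820.0 and 778 CPM with USP12. The USP12 libraries lay between the control libraries, and the log2 fold change was -0.27 (SE 0.36, adjusted p = 0.951 by edgeR's quasi-likelihood test). HSP90B1 (GRP94), the ER member of the HSP90 family, had 718 and 857 CPM in the controls and 542 and 534 CPM with USP12, a log2 fold change of -0.55 (SE 0.31). Here both USP12 libraries were below both controls. The lectin chaperones CALR (calreticulin; 1363 and 777 CPM in controls, 1163 and 956 CPM with USP12) and CANX (calnexin; 479 and 947 CPM, 619 and 750 CPM) had USP12 values between those of the controls. Their log2 fold changes were -0.01 and -0.06.

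SDF2L1 and CRELD2, small ER-resident proteins induced by ER stress, were both highest in control replicate 1. SDF2L1 had 31.7 and 10.1 CPM in the controls and 7.49 and 7.34 CPM with USP12. CRELD2 had 52.4 and 19.7 CPM in the controls and 17.9 and 16.4 CPM with USP12. Both fold changes rested mostly on that library, since leaving it out took SDF2L1 from -1.49 to -0.45 and CRELD2 from -1.07 to -0.20 on the log2 scale. MANF, an ER-resident factor that stressed cells secrete, had 63.1 and 47.9 CPM in the controls and 43.7 and 40.6 CPM with USP12. Its groups did not overlap, with a gap of a few CPM. Of the J-domain co-chaperones of BiP, DNAJB9 had 16.9 and 30.1 CPM in the controls and 12.8 and 14.8 CPM with USP12, without overlap. Its log2 fold change of -0.77 became -0.26 when control replicate 2 was left out and -1.12 when control replicate 1 was. DNAJB11 (62.4 and 73.0 CPM in controls, 63.1 and 53.3 CPM with USP12) and DNAJC3 (20.4 and 63.4 CPM, 25.8 and 30.3 CPM) had overlapping groups. The adjusted p-values of the chaperones other than HYOU1 were 0.685 or higher by edgeR's quasi-likelihood test.

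All 4 protein disulphide isomerases among the members had both USP12 libraries below both controls, beside 17% of all tested genes. These enzymes form and rearrange disulphide bonds in the ER lumen. Their median log2 fold change was -0.36, and in log2 CPM it was -0.35 against control replicate 1 and -0.38 against control replicate 2. P4HB, the archetypal isomerase, had 1799 and 1087 CPM in the controls and 717 and 677 CPM with USP12. The USP12 libraries were close to each other and the lower control was still well above them. The log2 fold change was -1.05 (SE 0.36, 2.07-fold lower, unadjusted p = 0.0266, adjusted p = 0.521 by edgeR's quasi-likelihood test). It was -1.37 against control replicate 1 and -0.64 against control replicate 2, and the quasi-likelihood adjusted p was 0.00611 when control replicate 2 was left out and 0.0662 when control replicate 1 was, in a range of 0.00611 to 1 over the alternatives. P4HB (ENSG00000185624, chromosome 17 from 81843159 to 81860856, minus strand) also has an unnamed overlapping gene on the opposite strand. The other isomerases differed less. PDIA4 had 566 and 533 CPM in the controls and 424 and 378 CPM with USP12, a log2 fold change of -0.45 (SE 0.31). PDIA6 had 388 and 431 CPM in the controls and 356 and 321 CPM with USP12, and PDIA3 had 457 and 497 CPM in the controls and 438 and 363 CPM with USP12. Their log2 fold changes were -0.27 and -0.25, each within its SE of 0.32. Leaving out control replicate 2 took them to -0.17 and -0.16. Of the 27 other ER folding enzymes, 10 had both USP12 libraries below both controls (17% of all) and 1 above both (19.5% of all). The groups of 16 overlapped, TXNDC5, TXNDC11, TMX1, TMX3, ERP44 and DNAJC10 among them, while PDIA5 and ERP29 were lower without overlap.

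ERAD returns misfolded proteins to the cytosol for degradation. Of its 9 genes, DERL3 had 0, 0, 0 and 2 counts and was not tested. The other 8 had a median log2 fold change of -0.38, 7 lower and 1 higher. Both USP12 libraries lay below both controls for 2 of them, beside 17% of all tested genes. HERPUD1, a scaffold of the ERAD complex, had 77.9 and 114 CPM in the controls and 63.3 and 59.1 CPM with USP12, a log2 fold change of -0.65 (SE 0.38). That of HERPUD1 was -0.32 when control replicate 2 was left out and -0.90 when control replicate 1 was. DERL2 had 37.6 and 39.9 CPM in the controls and 35.3 and 34.4 CPM with USP12, a narrow gap and a log2 fold change of -0.15 (SE 0.38). The HRD1 ubiquitin ligase SYVN1, its partner SEL1L, the mannose-trimming factors EDEM1, EDEM2 and EDEM3, and DERL1 had overlapping groups. EDEM3 had 14.5 and 50.9 CPM in the controls and 8.93 and 15.8 CPM with USP12, so that its log2 fold change of -1.40 (SE 0.70) rested on control replicate 2. EDEM2 was the reverse, with 136 and 44.2 CPM in the controls and 47.0 and 40.4 CPM with USP12, and its -1.04 (SE 0.58) rested on control replicate 1. SEL1L (69.8 and 189 CPM, 84.3 and 100.02 CPM), SYVN1 (69.3 and 115 CPM, 91.7 and 62.3 CPM), EDEM1 (30.1 and 61.5 CPM, 42.4 and 47.2 CPM) and DERL1 (37.7 and 99.1 CPM, 64.6 and 73.1 CPM) were each highest in control replicate 2. The median of the 8 ERAD genes was 0.01 against control replicate 1 and -0.57 against control replicate 2. SYVN1 is overlapped on its own strand by FAU, so its counts are uncertain. Of the 38 genes, 12 are overlapped by another annotated gene on the same strand and 20 by one on the opposite strand.

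The ATF4 arm had 7 genes, 6 lower and 1 higher, with a median log2 fold change of -0.63, which is the value of CHAC1 (SE 0.98). The median was -0.23 against control replicate 1 and -0.57 against control replicate 2 in log2 CPM. It was -0.20 when control replicate 2 was left out, -0.12 with an offset for GC content in each library, -0.24 with the replicate number as a block and -0.06 with the offset and the block. ATF4 itself had 732 and 592 CPM in the controls and 649.9 and 602 CPM with USP12, and the USP12 libraries lay between the controls (log2 fold change -0.08, SE 0.32, adjusted p = 0.982 by edgeR's quasi-likelihood test). PPP1R15A (GADD34), which directs a phosphatase to eIF2-alpha and so restores translation, had 162 and 241 CPM in the controls and 96.1 and 99.5 CPM with USP12. Both USP12 libraries were below both controls and nearly equal. The log2 fold change was -1.04 (SE 0.37, 2.06-fold lower, unadjusted p = 0.0305, adjusted p = 0.554 by edgeR's quasi-likelihood test). It was -0.72 against control replicate 1 and -1.30 against control replicate 2, and the quasi-likelihood adjusted p was 0.0334 when control replicate 2 was left out and 0.00881 when control replicate 1 was, in a range of 0.00881 to 1 over the alternatives. PPP1R15A (ENSG00000087074) lies on chromosome 19 from 48872212 to 48876059 on the plus strand with no overlapping gene.

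DDIT3 (CHOP) had the lowest estimate of all the ER genes and is set by 1 library. It had 11.4 and 58.5 CPM in the controls and 13.6 and 9.63 CPM with USP12 (150, 1055, 189 and 139 counts). The USP12 libraries were level with control replicate 1, and control replicate 2 stood far above the other 3. The log2 fold change of -1.59 (SE 0.79, adjusted p = 0.779 by edgeR's quasi-likelihood test) became 0.06 when control replicate 2 was left out and -2.33 when control replicate 1 was. DDIT3 is overlapped by MIR616 and an unnamed gene on its own strand and by MARS1 and MBD6 on the opposite strand, so its counts are uncertain. CHAC1, an enzyme that degrades glutathione, split the controls the other way, with 60.8 and 5.60 CPM in the controls and 22.4 and 20.4 CPM with USP12. The log2 fold change of CHAC1, -0.63 (SE 0.98), became 1.93 when control replicate 1 was left out and -1.48 when control replicate 2 was. TRIB3, a pseudokinase induced with DDIT3, had 106 and 242 CPM in the controls and 64.2 and 97.1 CPM with USP12, a log2 fold change of -1.11 (SE 0.51). It was -0.37 when control replicate 2 was left out and -1.59 when control replicate 1 was. Its groups did not overlap, though control replicate 1 and USP12 replicate 2 were close. SESN2, a stress-induced inhibitor of mTORC1, had 42.0 and 51.3 CPM in the controls and 39.1 and 39.3 CPM with USP12, without overlap. ASNS, which makes asparagine, had 81.0 and 244 CPM in the controls and 148 and 183 CPM with USP12, and its groups overlapped.

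**Figure D4:**
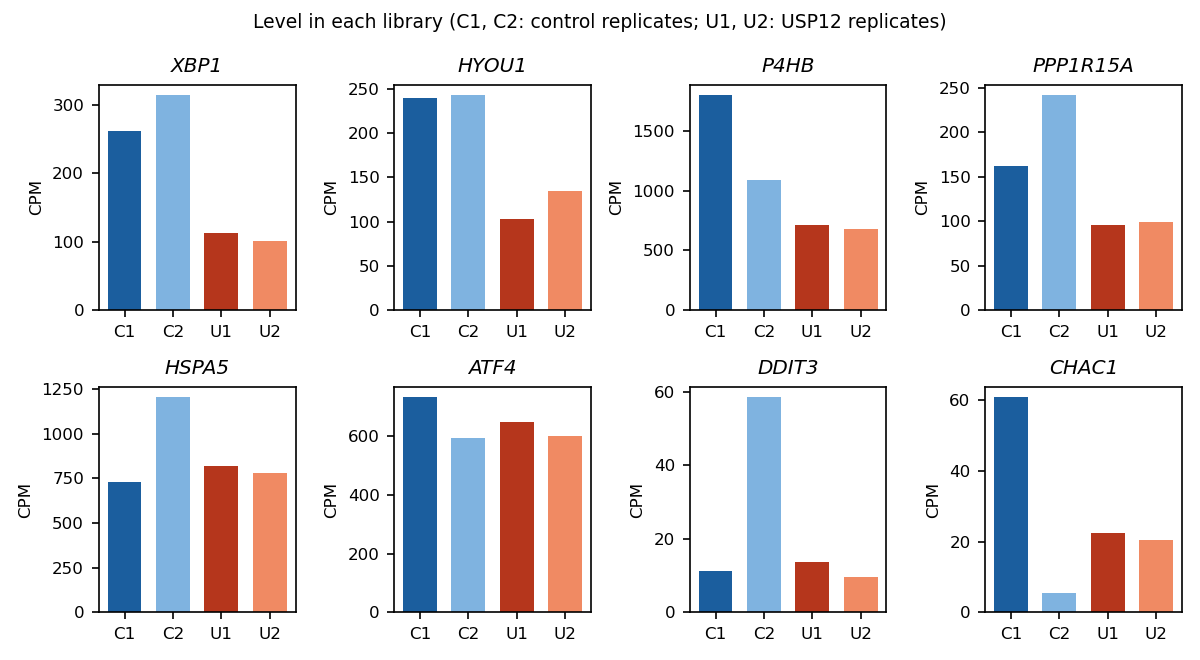
CPM in each library (bars from 0) for the 4 genes that met the cut-off (XBP1, HYOU1, P4HB, PPP1R15A) and for HSPA5, ATF4, DDIT3 and CHAC1. In the upper row both USP12 bars are below both control bars, and in the lower row the USP12 bars overlap the range of the controls.

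Proteins enter and leave the ER through the translocon and the COPII coat. The 3 genes of these structures all had both USP12 libraries below both controls, beside 17% of all tested genes. The median log2 fold change of the 3 was -0.65, and it was -0.29 when control replicate 2 was left out. In log2 CPM it was -0.32 against control replicate 1 and -0.74 against control replicate 2. SEC61A1, the channel subunit, had 349 and 468 CPM in the controls and 278 and 281 CPM with USP12, a log2 fold change of -0.55 (SE 0.34). When control replicate 2 was left out it was -0.29, and -0.74 when control replicate 1 was. SEC61B, a small subunit of the same channel, had 67.0 and 40.8 CPM in the controls and 37.6 and 31.0 CPM with USP12, and its log2 fold change of -0.65 became -0.25 when control replicate 1 was left out and -0.94 when control replicate 2 was. SEC24D, a cargo adaptor of COPII vesicles, had 29.1 and 87.8 CPM in the controls and 24.3 and 28.9 CPM with USP12. The controls of SEC24D were far apart and the lower of them barely exceeded USP12 replicate 2, so its -1.14 (SE 0.59) rested mostly on control replicate 2. The adjusted p-values of the 3 were 0.798 or higher by edgeR's quasi-likelihood test.

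Read by promoter instead of role, the 10 genes with an ERSE or ERSE-II had a median log2 fold change of -0.60, 10 of 10 lower, 7 with both USP12 libraries below both controls (17% of all tested genes) and 2 (HYOU1 and XBP1) past the cut-off as lower (4.41% of all). The 24 genes with a window and neither element had a median of -0.56, 23 of 24 lower, 10 with groups that did not overlap in that direction and 2 (P4HB and PPP1R15A) past the cut-off. In log2 CPM, the medians of the 2 sets were -0.39 and -0.17 against control replicate 1, and -0.53 and -0.63 against control replicate 2. Levels per length depended on the length used. In control replicate 1, CALR had 989.9 TPM, ATF4 569.9 TPM and P4HB 329 TPM by the union of annotated exons, and P4HB had 1043 TPM, CALR 1013 TPM and ATF4 729 TPM by the canonical transcript. In control replicate 2 they had 764, 625 and 269 TPM by the union of exons, and P4HB had 893 TPM, ATF4 835 TPM and CALR 817 TPM by the canonical transcript. EIF2AK3 (0.990 TPM by union, 3.13 TPM by canonical length) and EDEM3 (1.58 and 2.99 TPM) were the 2 lowest of the tested ER genes in control replicate 1 by both lengths.

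The wider pathway was read from 113 further genes, of which 110 were tested. Of these, 80 had a lower and 30 a higher estimate, with a median log2 fold change of -0.28. In log2 CPM the median was -0.02 against control replicate 1 and -0.35 against control replicate 2. Both USP12 libraries were below both controls for 35, where 17% of all tested genes were, and above both for 6, against 19.5% of all. As lower 4 met the cut-off and as higher 2, against 4.41% and 2.92% of all tested genes, so that neither count is above the share of all genes, and the genes are named below as the rule for naming asks. Of the 110, 0 had an adjusted p under 0.05 by edgeR's quasi-likelihood test. At an unadjusted p under 0.05 there were 8, beside 1155 of all 15222 tested genes. The 27 other ER folding enzymes had a median of -0.37 (23 lower, 4 higher), or -0.51 and -0.27 against control replicates 1 and 2, and none met the cut-off. The 17 other ERAD and ubiquitin factors had a median of -0.20, or -0.19 and 0.17 against the controls in the same order, and again none met it. The 29 other translocon and secretory genes had a median of -0.26, or 0.06 and -0.49 in that order, with SEC61G, the smallest channel subunit, lower (114 and 61.8 CPM in controls, 36.0 and 39.3 CPM with USP12). The 27 other ATF4 and amino acid response genes had a median of 0.01, with 13 lower and 14 higher, and the medians against the 2 controls had opposite signs, 0.37 and -0.54. In that list DDIT4, an inhibitor of mTORC1, had 328 and 233 CPM in the controls and 117 and 124 CPM with USP12 (log2 fold change -1.22, SE 0.36). CTH, which makes cysteine, had 12.4 and 7.20 CPM in the controls and 2.02 and 3.05 CPM with USP12 (-1.95, SE 0.59). VLDLR, a lipoprotein receptor, went the other way, with 8.25 and 10.3 CPM in the controls and 24.5 and 31.0 CPM with USP12 (1.58, SE 0.45). In each of these 3 genes the groups did not overlap.

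The widest difference in the pathway was that of a single gene, CREB3L1. It was in the list of ER membrane stress transducers and related genes, which also held MBTPS1, MBTPS2, BFAR and WFS1. The 10 tested genes of this list had a median log2 fold change of -0.30, with 9 lower and 1 higher. Against control replicates 1 and 2 the median was -0.17 and -0.27. CREB3L1, a transcription factor held in the ER membrane and released by cleavage like ATF6, had 291 and 117 CPM in the controls and 1.51 and 2.15 CPM with USP12 (3850, 2115, 21 and 31 counts). Its log2 fold change was -6.80 (SE 0.68). Its adjusted p of 0.0975 by edgeR's quasi-likelihood test was the smallest that any gene reached, a value that USP12 shared. WFS1 (wolframin), an ER membrane protein, was higher with USP12, at 39.5 and 44.2 CPM against 20.5 and 9.20 CPM in the controls (log2 fold change 1.50, SE 0.53, adjusted p = 0.538 by edgeR's quasi-likelihood test).

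**Figure D5:**
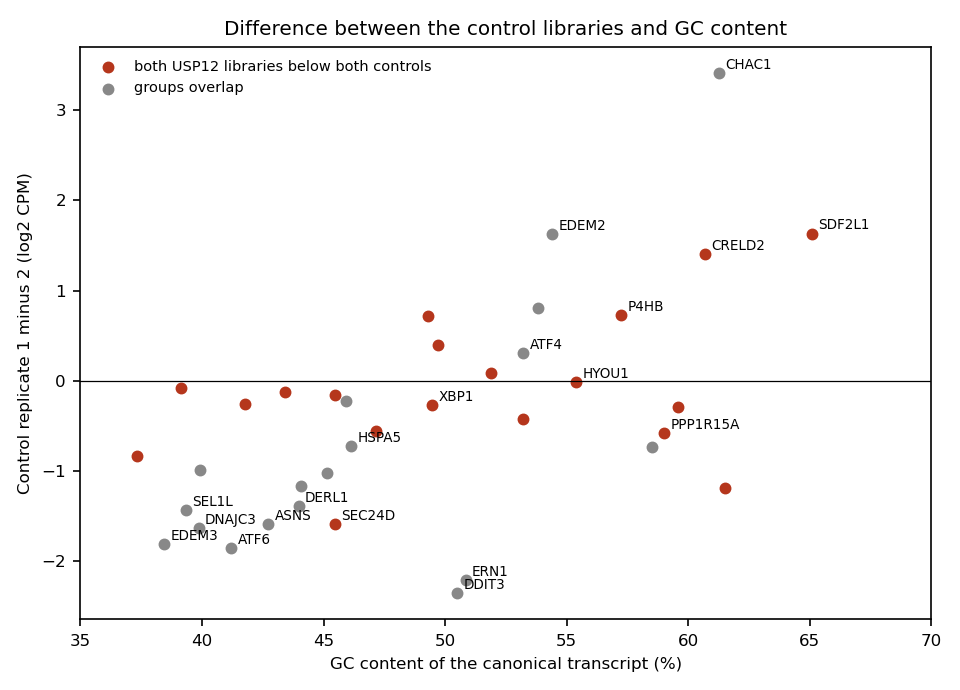
Log2 CPM difference between control replicates 1 and 2 against the GC content (%) of the canonical transcript for the 37 tested genes, coloured by whether both USP12 libraries were below both controls. Genes of low GC content such as ATF6 and EDEM3 lie below 0. Genes of high GC content lie on both sides, with SDF2L1 and CHAC1 above 0 and TRIB3 (-1.19) and PPP1R15A (-0.58) below it. XBP1 and HYOU1 lie near 0.

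The difference between the control libraries varied with base composition and length. Over the 37 genes Spearman's rho between GC content and the difference of control replicate 1 minus control replicate 2 was 0.52, and with transcript length it was -0.61. Over all genes with an annotated transcript (15094) the values were 0.60 and -0.34, with the same signs. These are correlations across genes of the same 2 libraries, which are not independent replicates. With an offset for GC content in each library, the median log2 fold change of the ER genes was -0.52 and that of XBP1 -1.54. By the cut-off 3 ER genes were then lower, beside 765 of 15094 genes. These were XBP1, EDEM3 (-1.28) and SEC24D (-1.26). HYOU1 (-0.95) and P4HB (-0.84) no longer met it by fold change alone, with an unadjusted p of 0.0243 and 0.0145 by edgeR's quasi-likelihood test. PPP1R15A (-0.95) missed it by fold change and by p (unadjusted p = 0.0943, same test).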

How the data were processed

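Per the labels and the study's methods, stranded mRNA libraries of A549 cells were sequenced, and the authors removed adaptors and ribosomal RNA reads with Seqtk, mapped reads to GRCh38 with HISAT2 2.0.4 and counted uniquely mapped fragments per gene with StringTie 1.3.0. The deposited values are these raw counts, without normalization. The annotation release and the strand setting of the counting are not given in the sources used here.

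Counts were filtered with filterByExpr, scaled by TMM and compared by the quasi-likelihood test of edgeR 4.0.16 in R 4.3.3, with Benjamini-Hochberg adjustment over 15222 genes and 4.15 prior degrees of freedom. A prior count of 2 was added for log2 CPM. The standard error (SE) of a log2 fold change was approximated as its size over the root of its F value. An exact permutation test of a single gene, with 2 libraries per group, has a smallest p of 0.333. GENCODE release 44, which holds 99.2% of the tested genes, gave positions, lengths and GC content. The members and lists were chosen with earlier results of these data known. By rule, all 38 members were named, with values in every library where groups did not overlap or the cut-off was met, as were other pathway genes past that cut-off. Genes named beyond this rule, such as those of overlapping groups, were given values after these were seen. Each library was left out in turn, and the other alternatives were size factors or the Wald test from DESeq2 1.42.0, edgeR's exact test, the replicate block, at least 10 counts in every library and no filter. Offsets for GC content (alone and with the block) and length, leaving out mitochondrial genes and levels per canonical length were added after seeing the data.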

Additional observations from a re-analysis of the deposited data

How the results depend on the processing

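The replicate numbers 1 and 2 are shared only as numbers, and same-numbered libraries deviated together weakly (correlation across genes 0.152). With the replicate block the median of the ER genes was -0.46, 30 of 37 estimates were lower, and the log2 fold change of XBP1 was -1.42, but the prior degrees of freedom were infinite, as they were without a filter and without either USP12 replicate. Genes lower at an adjusted p under 0.05, 0 by the quasi-likelihood test, numbered 361 with no filter, 277 by DESeq2, 262 by the exact test, 251 with the block, 16 with the GC content offset and 112 with that offset and the block, and 28 to 2612 with a library left out. Genes higher numbered 167, 133, 167, 153, 6 and 59 in the same order, and 12 to 2550. Of the ER genes, 1 was lower by DESeq2 and 1 by the exact test, and 0 to 15 were lower and 0 to 3 higher with a library left out. By the cut-off, 1173 genes were lower and 688 higher with no filter, and 300 to 2134 and 159 to 2495 with a library left out. Of the ER genes 10 were lower with no filter (of those 1173 genes) and 8 by DESeq2 (of 827 genes lower), and 0 to 12 were lower and 0 to 1 higher with a library left out. Leaving out a library moved the median of the ER genes between -0.58 and -0.20, and the number not overlapping between 21 and 33 lower and 0 and 9 higher, while of all tested genes 24.5% to 42.3% were then lower without overlap and 27% to 45.6% higher. The medians of the sensors with XBP1 and of the ERAD genes turned to 0.31 and 0.05 without control replicate 2. USP12 passed the threshold at 6.33 with no filter, 6.31 by DESeq2, 6.32 by the exact test, 6.43 with the block, 6.38 with the GC offset and 6.38 when combined with the block, and ranged from 5.85 to 7.06 with a library left out.

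Of 518 values for the 37 tested ER genes over 14 alternatives, 454 kept direction and side of the threshold, 28 passed it and 36, in 14 genes, changed sign. The cause was not tested. CALR was 0.0082 with no filter, 0.0356 with the block, 0.0628 with the GC offset, 0.0717 when combined with the block and 0.0576 with the length offset. DERL1 was -0.0084 with DESeq2's size factors, -0.0083 by its Wald test, -0.11 with the GC offset, -0.0567 when combined with the block and -0.0326 with the length offset. ASNS was -0.0361 with the GC offset and -0.0104 with the length offset. With the block, CANX was 0.016, EDEM1 0.0542, ATF6 0.0274 and CHAC1 0.19, and CHAC1 was 0.45 with the GC offset and the block. With a library left out, the ranges of the genes that changed sign were -0.59 to 0.16 (HSPA5), -0.33 to 0.45 (CALR), -0.47 to 0.54 (CANX), -1.17 to 0.49 (DNAJC3), -1.03 to 0.43 (SEL1L), -0.58 to 0.18 (SYVN1), -0.46 to 0.60 (EDEM1), -0.52 to 0.90 (DERL1), -1.61 to 0.63 (ERN1), -0.89 to 0.99 (ATF6), -0.20 to 0.0811 (ATF4), -2.33 to 0.0624 (DDIT3), -0.56 to 1.06 (ASNS) and -1.48 to 1.93 (CHAC1).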
